A study of Mus musculus with 16 samples.

Results

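The miR-221 and miR-222 pair comprises 2 of the 577 miRNAs on a single-colour Agilent mouse array that profiled dorsal skin. Its members were found by name, as the features called mmu-miR-221 and mmu-miR-222 on each of 16 arrays, and both were detected on all 16. The pair was chosen by its measured signals in wild-type skin, which were known to be low after irradiation, so the values of that contrast are given as a description with no test. The rule itself names no contrast, and results of all 4 groups were known when the pair was taken up, so the p-values of the other contrasts are not independent of the choice either. The 4 groups held 4 arrays each: WT no UV and KO no UV, from sham-handled Ppard+/+ and Ppard-/- mice, and WT UV and KO UV, from Ppard+/+ and Ppard-/- mice given UVB at 70 mJ/cm2, 3 times a week for 12 weeks. All mice had the hairless SKH1-C57/Bl6-SV129 background. Per the study's methods they were females, WT and KO were littermates, control mice were age-matched, and irradiated skin was free of lesions. The methods give an age of 8 to 12 weeks and do not say at which point. The irradiated skin was taken after 12 weeks of UVB, so this is unlikely to be the age at harvest. Ppard encodes the nuclear receptor PPARβ/δ, and the study asked which skin miRNAs respond to UV through it. The labels do not name a tissue-restricted deletion, and the arrays do not read Ppard mRNA, so the genotypes were not checked here.

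MiR-221 and miR-222 are cut from neighbouring hairpins of a common primary transcript and share a seed, the stretch near the 5′ end through which a miRNA recognises its targets. Their best-known targets are the cell cycle inhibitor p27 (Cdkn1b) and the receptor tyrosine kinase Kit, which melanocytes, mast cells and blood progenitors depend on. The pair is known from endothelium, vascular smooth muscle, leukocytes and melanoma, and all of these but the tumour contribute cells to skin.

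The mature strands and their hairpins are shown because the shared seed is what joins the pair, whereas the rest of each strand is what lets an array tell them apart. In the RefSeq miRNA table (GRCm38) both hairpins lie on the minus strand of chromosome X, 504 bases apart, and overlap 0 other genes of the RefSeq gene table; the nearest, the lncRNA Gm14636, is 9500 bases away. The mature 3p strands are given 5′ to 3′, with the seed (bases 2 to 8) in capitals.
miR-221-3p: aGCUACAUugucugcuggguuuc
miR-222-3p: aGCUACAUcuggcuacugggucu
They lie at chrX:19146307-19146329 and chrX:19146901-19146923. Both are 23 bases long, share their first 8 bases and have the same base at 11 of the 23 positions. The longest run they share after that start is the 6 bases CUGGGU. Among 1738 mature mouse miRNAs in the table, 3 carry this seed, and the remaining one, miR-1928, was not on the array under that name:
miR-1928: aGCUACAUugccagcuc
A perfect seed match in a target would read AUGUAGC. In the hairpins the capitals mark the 3p strand.
Mir221: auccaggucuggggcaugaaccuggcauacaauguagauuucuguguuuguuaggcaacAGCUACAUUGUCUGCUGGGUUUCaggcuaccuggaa
Mir222: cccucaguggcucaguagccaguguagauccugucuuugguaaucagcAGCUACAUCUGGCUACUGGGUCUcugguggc

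Each member was read by 2 probes of 10 spots. On the mm9 build of the files, the miR-221 probes span chrX:18723433-18723451 and chrX:18723433-18723452, which is 19 and 20 bases, and the miR-222 probes span chrX:18724029-18724041 and chrX:18724029-18724042, which is 13 and 14 bases. The array names give no arm. Their positions start 596 bases apart on mm9, against 594 for the 3p strands and 557 from miR-221-5p to miR-222-3p on GRCm38, so they were read as the 3p strands. Of 320 spots, 320 for miR-221 and 316 for miR-222 were well above background, and none of the spots was saturated (0 for each). The spread between the 10 spots of a probe on an array had a median CV of 4.48% for miR-221 and 9.52% for miR-222. The scanner software put the error of a total signal at 7.26 to 7.66% for miR-221 and 7.36 to 11.6% for miR-222, with the larger errors on the irradiated slide.

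The 4 groups came from 2 slides, and each slide held 1 irradiation state, so UV and slide cannot be told apart. Negative control spots varied more on the irradiated slide (SD 9.1 to 10.3 intensity units per array) than on the other (3.66 to 4.25). The summed signal of all miRNAs was highest for the KO no UV arrays, at 254694 to 395200 units. It was 170979 to 265981 for WT no UV, 223198 to 313107 for WT UV and 200905 to 231139 for KO UV. All signals below were quantile normalized between arrays unless stated otherwise, so a difference is relative to the other miRNAs on the arrays. All 7 keratinocyte miRNAs on a marker list, the skin miRNAs miR-203 and miR-205 among them, were detected on all 16 arrays.

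MiR-221 was brightest in WT no UV skin. Its log2 signals there were 10.33, 9.88, 10.09 and 10.14, with a mean of 10.11 ± 0.18 (SD, n = 4). The KO no UV arrays gave 9.43, 9.72, 8.82 and 9.80 (9.44 ± 0.45). This was the widest spread of the 4 groups, and replicate 3 lay apart from the others at the low end. For WT UV they were 8.62, 9.01, 8.72 and 8.82 (8.79 ± 0.16), and for KO UV 9.01, 8.97, 8.91 and 9.05 (8.98 ± 0.06). The irradiated groups overlapped, and KO UV was the tightest. Among the 577 miRNAs of an array, miR-221 held rank 41 to 53 in WT no UV and rank 71 to 80 after irradiation.

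MiR-222 followed the same order at a lower signal. Its log2 signals were 8.62, 7.80, 7.85 and 8.06 in WT no UV (8.08 ± 0.38, SD, n = 4) and 7.41, 7.55, 6.93 and 7.85 in KO no UV (7.43 ± 0.39). KO no UV replicate 3 was again the lowest of its group, and the 2 groups overlapped slightly. After irradiation they were 6.50, 6.81, 6.83 and 6.98 in WT (6.78 ± 0.20) and 6.78, 6.96, 7.05 and 7.01 in KO (6.95 ± 0.12). For both members the order of mean levels was thus WT no UV, KO no UV, KO UV, WT UV. The neighbours KO no UV and KO UV overlapped, and so did KO UV and WT UV.

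**Figure D1:**
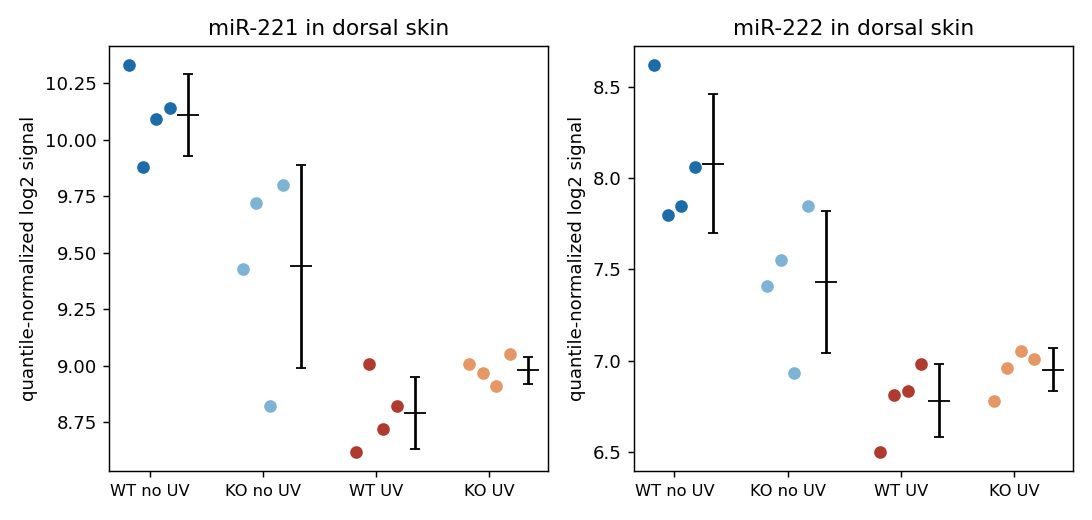
Quantile-normalized log2 signal of miR-221 (left) and miR-222 (right) on each of the 16 arrays, by group, with the mean and SD (n = 4) as a black bar beside the points. The WT no UV arrays of miR-221 (9.88 to 10.33) sit above all other arrays, whereas the KO no UV arrays reach down to the irradiated ones.

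UV in WT skin was taken as the contrast behind the choice of the pair. MiR-221 was 2.49-fold lower in WT UV than in WT no UV, a log2 difference of -1.32 ± 0.18 (SE), and all 4 irradiated arrays lay below all 4 controls. MiR-222 was 2.47-fold lower (-1.30 ± 0.20), again without overlap. How common such a lack of overlap was among all tested miRNAs was not counted. Over the 228 miRNAs tested, limma called 16.2% in this contrast, 9.21% higher and 7.02% lower, and the members held rank 3 and rank 4 from the lowest difference. These values lay behind the choice and support nothing by themselves.

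UV in KO skin used other mice, on the same 2 slides. MiR-221 was 1.38-fold lower in KO UV than in KO no UV, with a log2 difference of -0.46 ± 0.18 (95% confidence interval -0.84 to -0.08), and miR-222 was 1.40-fold lower, with -0.48 ± 0.20 (-0.92 to -0.05). Neither passed the threshold over all miRNAs (limma adjusted p = 0.0642 and 0.0866), in a contrast where 29.8% of the 228 were called, 18.4% higher and 11.4% lower. The members were at rank 35 and rank 31 from the lowest. KO no UV replicate 3, the lowest of its group, lay among the irradiated arrays. Without it both were called, and the differences were -0.69 (limma adjusted p = 0.00305) and -0.66 (adjusted p = 0.0328). For miR-222 the call also appeared, at -0.48 (limma adjusted p = 0.0473), when WT no UV replicate 1 was left out, an array outside the contrast that enters the normalization, the filter and the shared spread. Leaving out KO no UV replicate 4 instead moved both to -0.34 (limma adjusted p = 0.193 and 0.241). A fit of the arrays of the compared groups alone gave a limma adjusted p of 0.163 and 0.115. Scaled to the 75th percentile of miRNAs detected on all arrays, miR-222 passed at -0.64 (limma adjusted p = 0.0235) and miR-221 did not at -0.50 (adjusted p = 0.1). With that percentile taken over all miRNAs neither passed, at -0.53 for miR-222 (limma adjusted p = 0.062) and -0.39 for miR-221 (adjusted p = 0.23).

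The comparison of genotypes without irradiation addressed the resting level of the pair. Its WT no UV arrays also belong to the contrast behind the choice, so its differences and p-values are no independent evidence. MiR-221 was 1.59-fold lower in KO no UV than in WT no UV, at -0.66 ± 0.18 (-1.05 to -0.28), and miR-222 was 1.57-fold lower, at -0.65 ± 0.20 (-1.09 to -0.21). By rank they were the 5th and 6th lowest of 228. How many of the 228 had no overlap between the groups was not counted, here or for UV in WT skin. The arrays of miR-221 did not overlap, 9.80 being the highest KO and 9.88 the lowest WT value, while those of miR-222 did. Neither was called (limma adjusted p = 0.0635 and 0.119); in this contrast limma called 0% of the 228, although 36 had an unadjusted p under 0.05.

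For miR-221 this call turned on small choices. It passed in the fit of miRNAs detected on all 16 arrays (limma adjusted p = 0.0406), in the authors' series table (-0.68, adjusted p = 0.031) and with a robust trend (adjusted p = 0.0476), and also without WT no UV replicate 2 (-0.75, adjusted p = 0.0333) or KO no UV replicate 4 (-0.79, adjusted p = 0.0483). An exact two-sided permutation test of its 4 against 4 values gave 0.0286, the smallest p possible, before any adjustment. MiR-222 was called under none of its 18 alternatives and in none of the 16 fits that left out 1 array (lowest adjusted p = 0.0542). For miR-221 the call was unchanged in 14 of 18 alternatives and changed in 2 of the 16 such fits. Without KO no UV replicate 3 the differences shrank to -0.45 for miR-221 (limma adjusted p = 0.16) and -0.48 for miR-222 (adjusted p = 0.362). Fitted on the arrays of the compared groups alone, the limma adjusted p was 0.343 and 0.417. Both genotypes lay in both rows of this slide, and the KO minus WT difference was -0.53 and -0.80 for miR-221 and -0.74 and -0.57 for miR-222 within rows 1 and 2 (2 arrays per genotype in each).

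After irradiation the genotypes overlapped for both members. The WT UV arrays are those whose low values lay behind the choice, so these p-values are not independent of it. KO minus WT was 0.19 ± 0.18 for miR-221 (-0.19 to 0.57, limma adjusted p = 0.872) and 0.17 ± 0.20 for miR-222 (-0.27 to 0.61, adjusted p = 0.951). In this contrast 2.19% of the 228 were called, all lower in KO. WT arrays filled row 1 and KO arrays row 2 of the irradiated slide, so genotype and row cannot be told apart there. Subtracting the UV difference of KO from that of WT left -0.86 ± 0.25 for miR-221 and -0.82 ± 0.29 for miR-222, at rank 4 and rank 5 from the lowest, where limma called 1.75% of the 228 higher and 0.439% lower. This value holds the contrast that chose the pair and is given without a test.

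**Figure D2:**
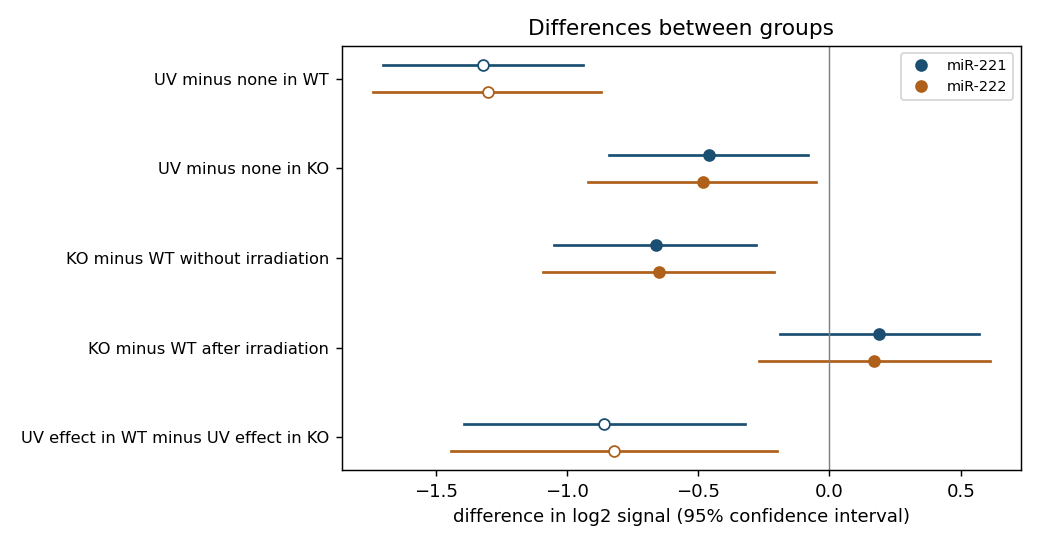
Difference in quantile-normalized log2 signal for miR-221 and miR-222 in each contrast, with the 95% confidence interval of the limma fit as a line. Open circles mark the contrasts that hold the one behind the choice of the pair; the filled ones range from -0.66 to 0.19, and the paired points of the members nearly coincide.

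The size of these differences depended on what the signal was set against. In unnormalized signals miR-221 had a mean log2 signal of 9.82 ± 0.27 in WT no UV and 9.70 ± 0.57 in KO no UV, a difference of -0.12, and miR-222 differed by -0.13. The median of the 228 miRNAs was meanwhile 0.52 higher in KO, so relative to it miR-221 was at -0.64 and miR-222 at -0.65. The genotypes overlapped in the raw signals of the pair, on arrays where most other tested miRNAs were brighter in KO.

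The UV contrasts also moved with the scaling. Unnormalized, miR-221 changed by -1.02 in WT and -0.96 in KO, and miR-222 by -1.11 and -1.10, while the median of all tested miRNAs moved by 0.21 in WT and -0.48 in KO. In KO both were then called (limma adjusted p = 0.00689 and 0.00195). Relative to the medians the values were -1.23 and -0.48 for miR-221 and -1.32 and -0.62 for miR-222. The gap between the UV differences of WT and KO was -0.06 and -0.01 in unnormalized signals, and -0.83 and -0.78 relative to the median shift of 0.77. After irradiation, KO minus WT changed sign to -0.06 and -0.12, against a median of -0.25.

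**Figure D3:**
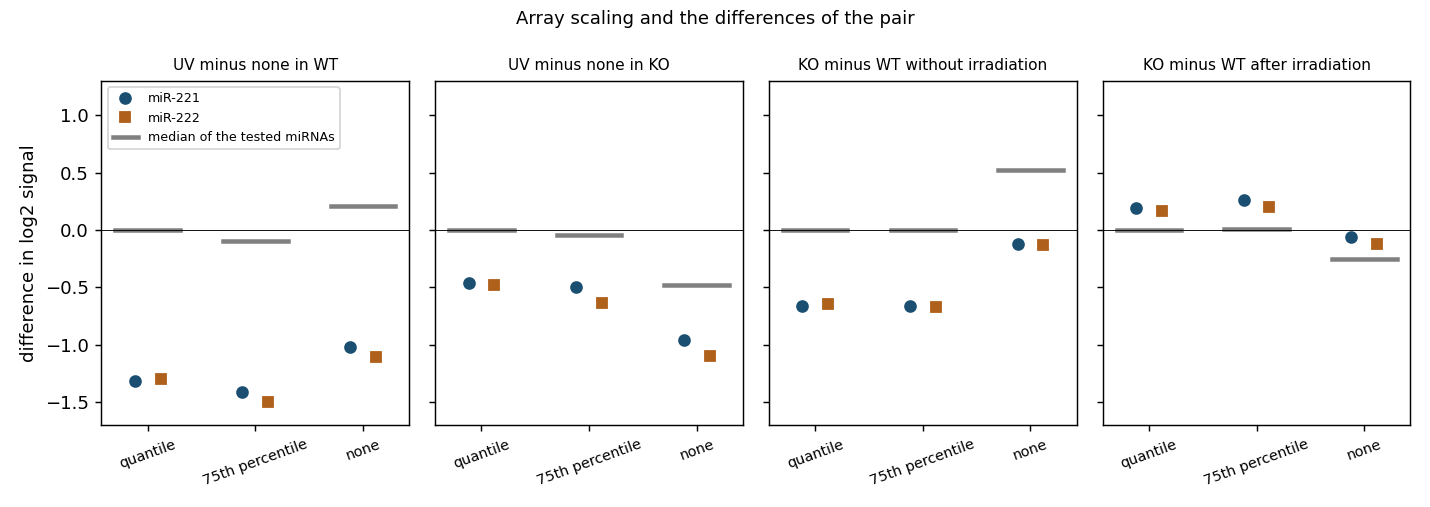
Log2 difference of miR-221 (circles) and miR-222 (squares) in 4 contrasts under quantile normalization, scaling to the 75th percentile of miRNAs detected on all arrays and no normalization, with the median of the 228 tested miRNAs as a grey bar. With no normalization the grey bar lies at 0.52 for KO minus WT without irradiation and the pair near 0, at -0.12 and -0.13.

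After quantile normalization the distance between the members differed by at most 0.02 between the group means compared. On each of the 16 arrays miR-221 was brighter than miR-222, by 1.70 to 2.24 on the log2 scale. Different probes do not report amounts on a common scale, so this distance is no ratio of molecules. It cancels a factor shared by all signals of an array, but quantile normalization is not such a factor. Only the change of the distance between groups was compared. Both members had been chosen for low values in WT UV, so the change in WT (-0.01) is given without a test. The mean distance without irradiation was 2.02 ± 0.23 in WT and 2.01 ± 0.12 in KO (SD, n = 4), and after irradiation it was 2.01 ± 0.18 and 2.03 ± 0.15. An exact two-sided permutation test gave p = 0.8 for UV minus none in KO (0.02). The same exact test gave p = 0.971 for KO minus WT without irradiation (-0.01) and p = 0.886 after it (0.02), both with the WT arrays of the choice. Each had an adjusted p of 0.971 over the 4 contrasts, an adjustment that also took in the WT change. An exact test of 4 against 4 arrays cannot give less than 0.0286. At that minimum a single contrast would stay above 0.05 after this adjustment. The lack of a call therefore says little about whether the members move together. Scaled to the 75th percentile of miRNAs detected on all arrays, the distance changed by 0.09 for UV minus none in WT and 0.14 in KO. For KO minus WT it changed by 0.01 without irradiation and 0.06 after it. With normexp background correction and an offset of 50, the distance moved more than with the processed signal. Both kinds of signal were quantile normalized. The changes were -0.41 for UV minus none in WT, -0.10 for UV minus none in KO, -0.19 for KO minus WT without irradiation and 0.12 after it. No exact adjusted p was under 0.05 in any tested contrast (from 0.229 to 0.4).

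**Figure D4:**
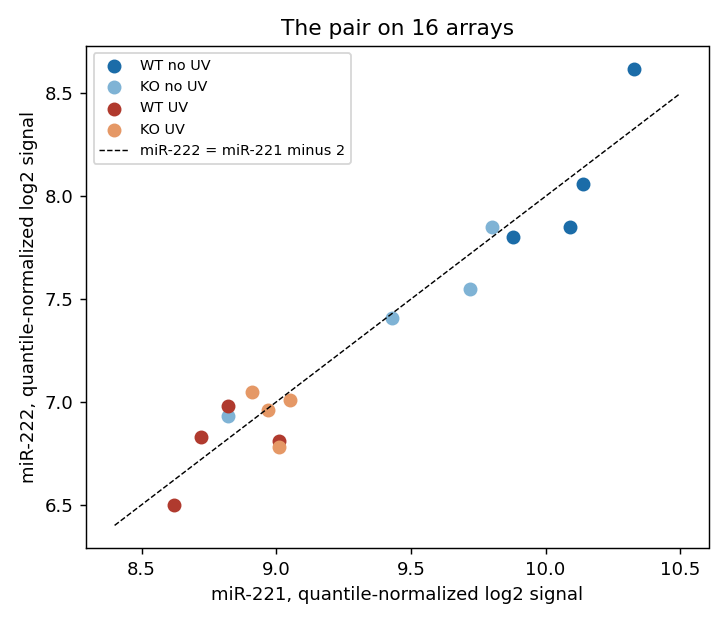
Quantile-normalized log2 signal of miR-222 against that of miR-221 on the 16 arrays, coloured by group, with a dashed line where miR-222 is 2 log2 units below miR-221. The arrays follow the line from WT UV at the lower left (8.62 and 6.50 on the lowest array) to WT no UV at the upper right (10.33 and 8.62 on the highest).

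Over the 16 arrays the members correlated at r = 0.964 (Pearson), the highest of 166 miRNAs for each of them, and at 0.809 in the deviations from group means, again the highest. Both members were chosen for low values in WT UV, so a high r over the 16 arrays and its rank were partly built in by the choice. The arrays share 2 slides and a normalization, and no p is given. After each other, the miRNAs most like miR-221 were miR-342-3p (r = 0.883), miR-150 (0.830) and miR-24-2* (0.760), and those most like miR-222 were miR-342-3p (0.848), miR-150 (0.788) and miR-146a (0.779). MiR-342-3p and miR-150 are abundant in lymphocytes, and miR-146a is induced in immune cells by inflammatory signals. Within groups the likeness of miR-150 went down to 0.172 and 0.028, whereas that of miR-342-3p was 0.691 and 0.546. The choice of neighbours was not firm: under scaling to the 75th percentile of miRNAs detected on all arrays, 1 of 3 was kept for each member, and miR-24 led both lists (r = 0.918 and 0.908).

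**Figure D5:**
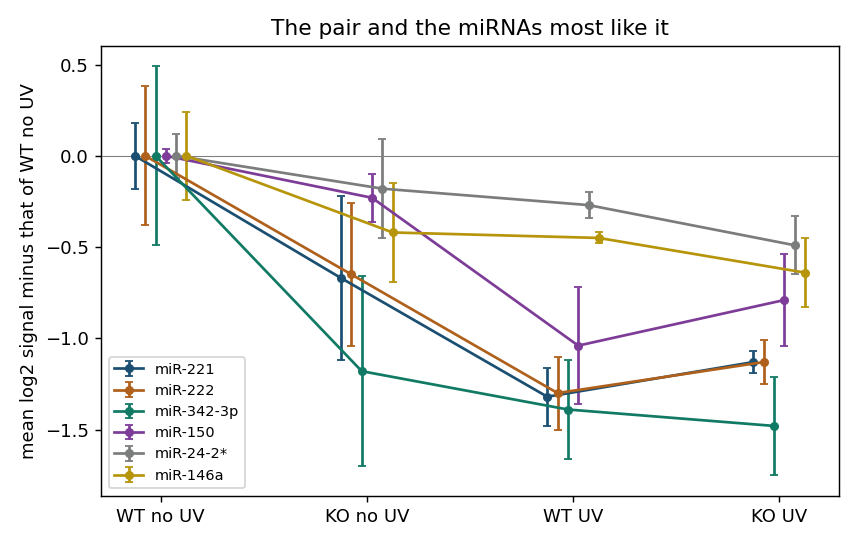
Mean log2 signal of miR-221, miR-222 and the 4 miRNAs most like them, each minus its own mean in WT no UV, by group; error bars are the SD of the 4 arrays. MiR-342-3p is at its lowest in KO UV, whereas miR-221, miR-222 and miR-150 are lowest in WT UV.

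These miRNAs were picked for their likeness over all 16 arrays, so their differences are a description. In KO no UV, miR-342-3p was at 9.31 ± 0.52 against 10.49 ± 0.49 in WT no UV (SD, n = 4), a difference of -1.18. UV minus none in KO was -0.29 for miR-342-3p and -0.56 for miR-150. In WT it was -1.39 for miR-342-3p and -1.05 for miR-150, at rank 2 and rank 5 on either side of the pair. In whole skin, fewer cells of a type and less RNA per cell cannot be told apart.

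The marker lists of cell types that may hold the pair did not all go the same way. The leukocyte list had 2 of 6 members lower and 0 higher in WT after UV, miR-342-3p and miR-150, beside 7.02% lower and 9.21% higher over all 228, with a list median of -0.38 against 0. Both are among the miRNAs picked for likeness to the pair. In KO 1 was lower, miR-150, and 1 higher, miR-155, beside 11.4% and 18.4% of all. The list's summed normalized signal was 4550 to 6010 units for WT no UV, 2780 to 4530 for KO no UV, 3490 to 4310 for WT UV and 3000 to 3510 for KO UV. WT no UV thus stood highest for this list as for the pair. The sum holds miR-342-3p and miR-150, picked for their likeness, so this parallel is not independent of the pair. For the other members, UV minus none in WT was -0.15 (miR-142-3p), -0.61 (miR-142-5p), -0.15 (miR-223) and 0.09 (miR-155). The list's part in the result was not tested.

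Of the endothelial list, miR-126-3p rose in WT after UV by 0.46 (limma adjusted p = 0.000599), beside 9.21% of all 228 called higher, and was at 0.01 in KO (adjusted p = 0.991). MiR-126-5p was at -0.24 and -0.55 (adjusted p = 0.598 and 0.161). The list's summed signal was lowest in WT no UV (1600 to 2010 units), where the pair was highest, and 2110 to 2630 over the arrays of the other groups. The smooth muscle miRNAs miR-143 and miR-145 both changed in KO, by -0.79 and -1.66 (limma adjusted p = 0.0203 and 0.000265), beside 11.4% of all 228 called lower. MiR-145 fell in WT by 0.93 (limma adjusted p = 0.00963) with miR-143 at 0.03, beside 7.02% of all called lower. MiR-211, the melanocyte miRNA from the Trpm1 gene, was detected on 5 of 16 arrays and was not tested.

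The 4 skeletal muscle miRNAs stood on the opposite side from the pair in resting skin. Their summed signal was 40700 to 50300 units in KO no UV and 20500 to 41200 in WT no UV, and all 4 fell in KO after UV, beside 11.4% of all 228 called lower (list median -1.04). KO minus WT without irradiation was 0.67 to 0.83 for the 4, with none called (limma adjusted p from 0.0635 to 0.202). Their part in the result was not tested.

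The rest of chromosome X was measured on the same arrays. Of 79 other miRNAs that the files place on this chromosome, 16 passed the detection rule. In WT after UV 0 of the 16 were called, beside 16.2% of all 228, with a median of -0.06 and the lowest difference that of miR-188-5p, at -0.31. In KO after UV 1, miR-20b, was higher and 0 lower, beside 29.8% called over all, again with a median of -0.06. KO minus WT gave 0 calls without irradiation, beside 0% of all, and 1 lower, miR-322, after it, beside 2.19%.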

How the data were processed

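MiRNA levels in dorsal skin were measured on 16 one-colour arrays, 1 per mouse sample. Per the labels, 100 ng of total RNA was labelled with Cy3. Agilent Feature Extraction 9.5.3.1 read the slides on the mm9 build, per the file headers, and subtracted a spatial background and summed the spots of each miRNA. The deposited scanner files hold intensity values with no normalization between arrays. A second deposited source, used for comparison, is the authors' table of 599 features in log2, which per their methods went through invariant set and quantile normalization with an offset that is not stated.

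Here the total gene signals underwent quantile normalization (limma 3.58.1, R 4.3.3), then a floor of 19.4 units and the log2 transform (4.28 at the floor). A miRNA was tested if some group detected it on each of its 4 arrays (228; 167 were detected on all 16 arrays). A group-means model was fitted to the 16 arrays with eBayes, and calls were made at 0.05 after Benjamini-Hochberg adjustment over the 228. The members, lists and tests were chosen with earlier results of these data known. Named were the pair, the 3 miRNAs most like each member by Pearson's r over 16 arrays among those detected on all of them, and the list members. Sequences are from the RefSeq miRNA table (GRCm38), in which both members matched. The limma p-values set a group difference against the spread between arrays within the 4 groups, and the number of arrays limits the precision. For the UV contrasts that spread holds no variation between slides. Alternatives changed the scaling, signal, probe, filter, floor, block, row, moderation, test, threshold and arrays used.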

Additional observations from a re-analysis of the deposited data

How the results depend on the processing

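With no normalization, UV minus none in WT was -1.02 for miR-221, UV minus none in KO was called at -0.96 and -1.10 for miR-221 and miR-222, KO minus WT after irradiation turned to -0.06 and -0.12, and the difference between the UV effects moved to -0.06 and -0.01. With normexp and an offset of 50, UV minus none in WT was -0.95 and -0.54, UV minus none in KO was called at -0.19 for miR-222, and the difference between its UV effects was -0.34. UV minus none in KO was called for miR-222 at -0.64 by the 75th percentile over detected miRNAs, not over all (-0.53), and at -0.70 by the invariant set of 84, and for miR-221 at -0.46 among miRNAs detected on all 16 arrays. KO minus WT without irradiation was called for miR-221 at -0.68 in the authors' table and at -0.66 with that filter and with a robust trend, while the exact permutation test passed only unadjusted (p = 0.0286); for all these values the cause was not tested. The distance between the members changed sign without a call: 0.09 and 0.05 in WT after UV, and 0.01 and 0.05 for KO minus WT without irradiation (75th percentile over detected miRNAs and mean processed spot signal), and -0.10 in KO after UV (normexp). The larger moves under normexp are given above.

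With each array left out in turn, the ranges for miR-221 and then miR-222 were -1.40 to -1.24 and -1.41 to -1.13 for UV minus none in WT, -0.69 to -0.34 and -0.66 to -0.34 for UV minus none in KO, -0.79 to -0.45 and -0.79 to -0.47 for KO minus WT without irradiation, 0.14 to 0.26 and 0.07 to 0.24 after it, and -0.99 to -0.64 and -0.96 to -0.64 for the difference between the UV effects. The distance between the members ranged from -0.12 to 0.06 for UV in WT, -0.05 to 0.09 for UV in KO, -0.12 to 0.06 for KO minus WT without irradiation and -0.05 to 0.08 after it. Either probe alone, the other filters and floor, fits of the compared arrays alone, slide row and the methods' threshold changed no call of the pair.

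Same-numbered arrays correlated in their deviations at over 0.1 in 2, 2, 2 and 3 of 4 pairs in the 4 contrasts. All 4 pairs were positive for UV minus none in WT (lowest r = 0.01) and for KO minus WT after irradiation (lowest r = 0.09). In no contrast were all pairs over 0.1, so the numbers were not taken as pairs. With the replicate block the values of miR-221 were -1.32, -0.46, -0.66, 0.19 and -0.86, those of miR-222 -1.30, -0.48, -0.65, 0.17 and -0.82, and no call of the pair changed (limma adjusted p from 0.0683 to 0.931).

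Calls over all tested miRNAs ranged from 26 to 58 for UV in WT (37 as reported), 27 to 130 for UV in KO (68), 0 to 111 for KO minus WT without irradiation (0), 0 to 7 after irradiation (5) and 0 to 138 for the difference between the UV effects (5); the highest counts of UV in KO, of KO minus WT without irradiation and of the difference came with no normalization. Fits by probe called 102, 139, 2, 6 and 3 of 559. With no filter, 344 miRNAs at the floor had no spread within any group, and 410, 29, 0, 359 and 366 were called, which is no usable count.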

Other observations

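Other cell type lists, not tied to the pair by a test, moved as follows after UV. Of the 7 keratinocyte miRNAs, 4 rose in WT and 6 in KO, beside 9.21% and 18.4% of all 228 called higher, with list medians of 0.44 and 0.39 against 0 over all tested miRNAs. MiR-200c, an epithelial miRNA of the miR-200 family, rose by 0.83 in WT and 0.80 in KO (limma adjusted p = 0.000988 and 0.00249). Of 3 fibroblast miRNAs tested, 0 changed in WT, beside 16.2% called over all, and 1, miR-214, rose in KO by 0.32 (adjusted p = 0.036), beside 18.4% of all called higher. Of the erythrocyte miRNAs miR-451 and miR-486, 0 changed in WT and miR-486 fell in KO by 0.86 (adjusted p = 0.0135), beside 11.4% of all called lower, and miR-144 was detected on 3 of 16 arrays.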
